A study of Homo sapiens with 8 samples.

Results

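Interferon-stimulated genes are the genes that cells switch on after type I or type III interferon reaches its receptor, and many keep a low level without any added interferon. The members were 48 gene symbols taken from a fixed list of such genes, found by name among the non-control probes of each array, and all 48 had at least 1 probe among 41810 named genes. They were measured in 4 human cancer cell lines on 8 two-colour arrays, with mock cells in the Cy3 channel and transfected cells of the same line in the Cy5 channel. The renal cancer lines, A498 and 786-O, each received mature miR-139-5p for 1 array and the opposite strand, miR-139-3p, for another. The breast cancer line was MDA-MB-231, which received siRNA 1 or siRNA 2 against GINS1, a subunit of the replicative helicase. HCT116 is a colorectal cancer line and received miR-490-5p on 1 array and miR-490-3p on the other. All transfections used the lipid reagent Lipofectamine RNAiMAX, and the mock cells are labelled as not transfected, so the effect of an RNA cannot be told apart from that of the reagent on any single array. No array had its dyes swapped. Both arrays of a line carry the same mock code in their deposited names, so their mock channels were counted as 1 sample. Each RNA was put on 1 array per line, and the only replicates were the lines for miR-139 and the siRNAs for GINS1.

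Interferon binding activates the kinases JAK1 and TYK2, which phosphorylate transcription factors such as STAT2. STAT2 and IRF9 are parts of a complex that binds the interferon-stimulated response element in promoters. Its targets encode proteins that bind foreign RNA, block virus entry and assembly, modify other proteins with ISG15, and feed back on the pathway. Double-stranded RNA in the cytoplasm, sensed by RIG-I (DDX58) and MDA5 (IFIH1), can start the same response.

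The miRNAs are shown because both strands of each duplex were compared. Their mature sequences are those of RefSeq (GRCh38.p14), with the seed, bases 2 to 8 from the 5′ end, in capitals.
miR-139-5p: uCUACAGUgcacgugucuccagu
miR-139-3p: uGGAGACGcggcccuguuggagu
miR-490-5p: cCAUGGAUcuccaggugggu
miR-490-3p: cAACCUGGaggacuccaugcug
No seed was shared among the 4. The miR-139 hairpin lies on chromosome 11 and the miR-490 hairpin on chromosome 7.

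Promoters were searched for the core of the interferon-stimulated response element, GAAA followed by any 2 bases and a further GAAA, on both strands. RefSeq (GRCh38.p14) gave a promoter for 39 of the 48 members, each 300 bases long with 250 before the start and 50 after it. The motif was found in 25 of the 39 (64.1%), against 3.65% of all 27305 promoters of that length. The GAS motif, named for its role in the response to interferon gamma, TTC and GAA with any 3 bases between them, was found in 12 of the 39 (30.8%), against 7.88% of all. The 200 bases before the start of 5 members that stood out on the A498 or HCT116 arrays are shown, 5′ to 3′ along the gene, with each match to the response element in capitals.
IFIT1 (chr10:89392423-89392622, plus strand): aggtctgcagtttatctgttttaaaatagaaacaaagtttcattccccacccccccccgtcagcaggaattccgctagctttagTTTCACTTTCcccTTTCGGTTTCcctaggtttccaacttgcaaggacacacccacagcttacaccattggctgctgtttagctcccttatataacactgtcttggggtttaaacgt
IFIT3 (chr10:89327797-89327996, plus strand): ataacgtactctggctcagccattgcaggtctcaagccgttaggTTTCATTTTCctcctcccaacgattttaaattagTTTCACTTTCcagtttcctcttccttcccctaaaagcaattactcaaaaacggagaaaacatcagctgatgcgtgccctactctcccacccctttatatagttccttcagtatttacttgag
ISG15 (chr1:1013297-1013496, plus strand): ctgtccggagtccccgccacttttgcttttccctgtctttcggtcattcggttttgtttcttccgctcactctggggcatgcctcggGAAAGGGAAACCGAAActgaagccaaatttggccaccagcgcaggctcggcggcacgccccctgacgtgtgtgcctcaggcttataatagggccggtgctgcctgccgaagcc
IFI27 (chr14:94110536-94110735, plus strand): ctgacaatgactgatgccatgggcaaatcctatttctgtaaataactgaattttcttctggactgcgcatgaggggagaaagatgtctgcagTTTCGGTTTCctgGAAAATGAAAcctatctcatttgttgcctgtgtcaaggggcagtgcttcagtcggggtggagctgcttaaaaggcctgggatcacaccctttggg
RSAD2 (chr2:6865685-6865884, plus strand): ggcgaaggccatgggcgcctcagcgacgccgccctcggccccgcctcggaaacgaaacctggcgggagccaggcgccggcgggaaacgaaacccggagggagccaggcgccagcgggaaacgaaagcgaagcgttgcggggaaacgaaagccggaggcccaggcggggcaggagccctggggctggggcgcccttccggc
RSAD2 is shown because these letters are not in its window. In the windows of IFIT1 and IFI27 the matches stood close together, and in that of ISG15 they overlapped.

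By the flag of the scanner software, 24980 to 29685 of the 58201 probes on an array stood well above background in Cy3, Cy5 or both. Both mock channels of a line differed with an SD between 0.07 and 0.10 log2 units over the genes measured on both, which is the technical spread used below. GINS1 itself had a log2 ratio of -1.31 with siRNA 1 and -1.92 with siRNA 2, and lay between -0.11 and 0.55 on the other arrays. PDGFRB, a receptor of fibroblasts, read between -1.08 and -0.82 on all 8 arrays whatever the line or RNA, and its part in the results was not tested. The Cy3 background of the miR-490-5p array was 17, against 14 on the other arrays. The lines were set against their markers. PAX8, PAX2 and LHX1, factors of the renal lineage, were highest in A498 and 786-O, CDX2 was well above background only in HCT116, and EPCAM was highest in HCT116. VIL1 and CDH17 were not well above background in HCT116 mock cells, CA9 was not in A498, and KRT5 was not in MDA-MB-231. CDX1 was measured in all lines and was higher in A498 (7.19) and 786-O (6.94) than in HCT116 (6.87). Of 4 leukocyte markers with a probe, 3 passed the background flag in both mock channels of A498 and likewise of 786-O, while MDA-MB-231 had 2 and HCT116 had 1. PTPRC lay between 6.0 and 6.2 on the log2 scale in every mock, near the background level of 5.7. CD14 stood at 8.41 in MDA-MB-231 mock cells and 6.76 in those of 786-O, and read -1.18 and -1.20 with the siRNAs. The part of CD14 in the siRNA results was not tested.

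The members differed in how many were measurable in each line. In mock cells, 45 of 48 passed the background flag on both A498 arrays (43.0% of all named genes did) and 46 on both MDA-MB-231 arrays (46.5%). In 786-O 36 passed (41.4%), and in HCT116 32 did (44.6%). In A498 LAMP3 and the chemokines CXCL10 and CXCL11 were not well above background in either mock channel. In MDA-MB-231 CXCL10 was not. In 786-O OAS1, LAMP3, HERC6, TRIM22, RSAD2, CMPK2, XAF1, EPSTI1, CXCL10 and CXCL11 were not. In HCT116 these were OAS1, MX2, GBP1, GBP2, HERC6, TRIM22, RSAD2, IFI44, IFI44L, SAMD9L, XAF1, EPSTI1, CXCL10 and CXCL11. These lists go by the brightest probe of each gene. A second, dimmer MX2 probe did pass in both HCT116 mock channels, and by any probe of a gene the HCT116 count was 33. OAS2 and SAMD9 passed on 1 of the 2 mock channels in 786-O and in HCT116, and EPSTI1 did so in MDA-MB-231. In transfected cells the counts on both arrays were 45 (A498), 47 (MDA-MB-231), 37 (786-O) and 33 (HCT116).

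A498 held the highest mock level for most members and HCT116 the lowest. Levels are given as log2 Cy3 after normalization, where about 5.7 is background and the offset of 50 used in background correction pulls low values together. A fold against a line where a gene was not well above background is a bound, written as at least, set by the dimmest probes well above background there. Of 47 members well above background in their highest line, 34 were highest in A498, 12 in MDA-MB-231, 1 in HCT116 and 0 in 786-O. HCT116 was the lowest line for 34 of them. Among these were OAS1, HERC6, TRIM22, RSAD2, XAF1 and EPSTI1, for which neither HCT116 nor 786-O was well above background. The order of HCT116 and 786-O is not read for those genes. The top line stood apart from the next by more than the gap between mock channels of either line for 31 of the 34 led by A498, the exceptions being HERC6, SAMD9L and EPSTI1, and for all 12 led by MDA-MB-231. Each line gave 1 mock, so no test between lines was made.

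Set side by side, 28 of 46 members were higher in A498 than in HCT116 by 1 log2 unit or more, against 8.24% of all genes measured in either line. By the same size 2 members were higher in HCT116, LAMP3 and IFITM2, against 8.33% of genes. The median difference of the members was 1.49, and that of all genes was -0.04. Against 786-O, 23 of 45 members were higher in A498 by 1 or more (5.73% of genes) and 0 were lower (5.27%). Against MDA-MB-231, 17 of 47 were higher in A498 (7.13%) and 5 lower (7.32%). The 5 were OAS2, GBP2, IFITM1, IFITM2 and IFI27.

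**Figure D1:**
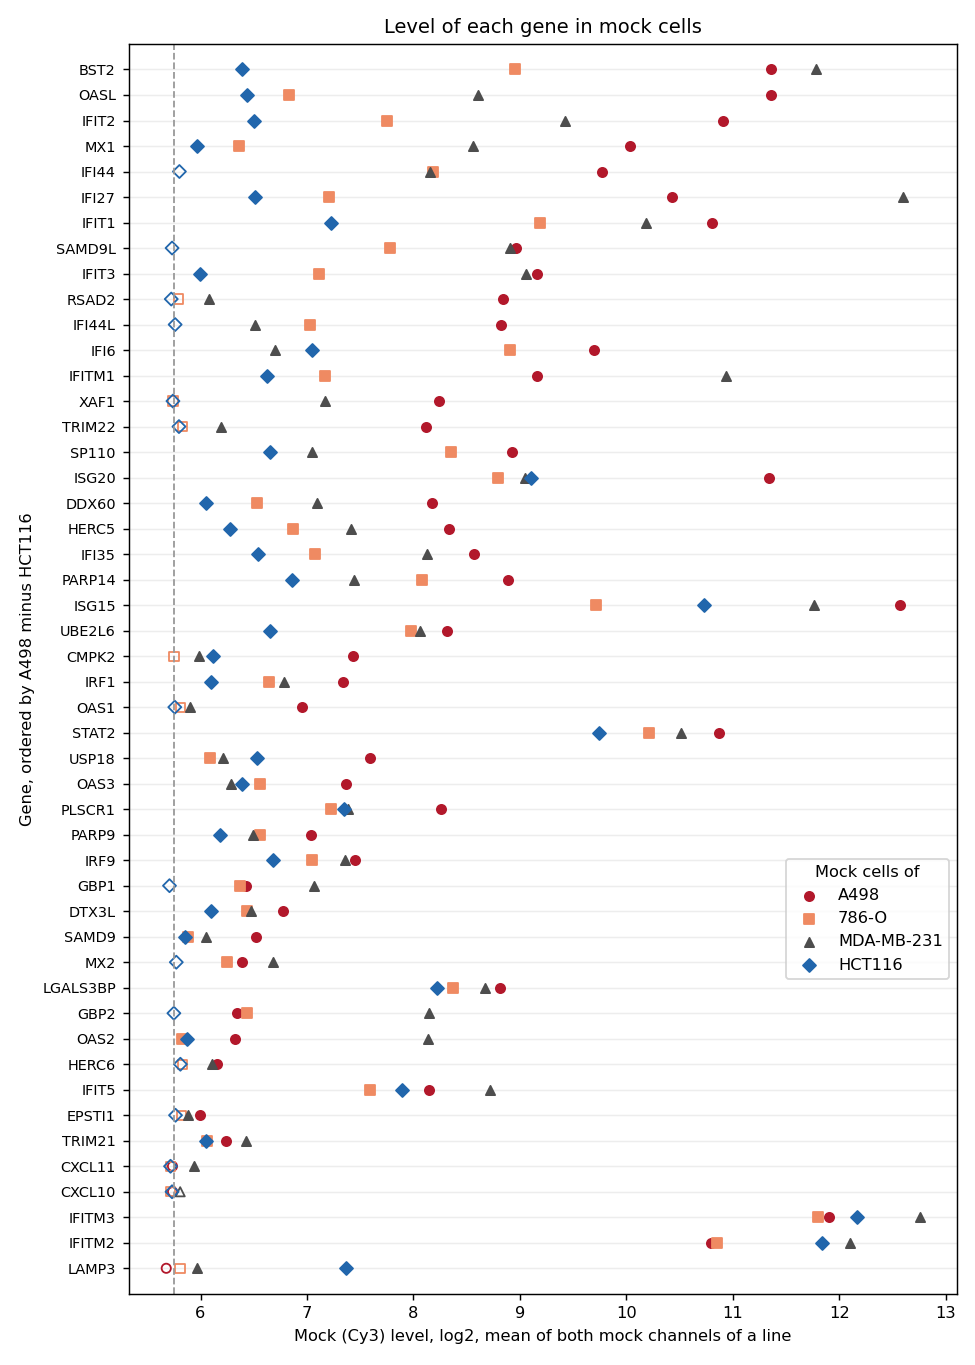
Mock (Cy3) level of each of the 48 genes in 4 cell lines, on a log2 scale along the horizontal axis, as the mean of both mock channels of a line. Open symbols were not well above background in either mock channel and the dashed line marks the background level of 5.7. Genes are ordered by A498 minus HCT116, from BST2 at the top (11.36 against 6.39) to LAMP3 at the bottom (5.68 against 7.37).

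On the arrays against mock, members were mostly lower after miR-139 transfection in A498 and close to 0 in 786-O. In MDA-MB-231 more members lay below 0 than above it, and with miR-490-3p in HCT116 more lay above 0 than below. Counts at a log2 ratio of 1 in either direction, that is a 2-fold difference, were taken over the genes that stood well above background in either channel. With miR-139-5p in A498, 1 of 45 members lay at or below -1, against 0.0686% of 20397 genes, and 0 at or above 1 (0% of genes). With miR-139-3p in A498, 8 of 45 lay at or below -1, against 0.174% of 19529 genes, and 0 at or above 1 (0.0307%). Only 34 genes of the whole array lay at or below -1 there, so 8 of those 34 were members. These were OASL, IFIT2, IFIT1, IFI44L, IFI27, RSAD2, IFIT3 and IFI44, in order from the lowest. The count of 8 was 3 with median centring and 18 with the scanner's own ratio. No share of all genes under those settings is set beside these counts, so they are not read against one.

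In 786-O no member reached 1 in either direction, although with miR-139-5p 10 members lay above the 95th percentile of all genes and 0 below the 5th. With miR-139-5p 0 of 38 lay at or below -1 (0.0369% of genes) and 0 at or above 1 (0%), and with miR-139-3p 0 of 37 lay at or below -1 (0.0262%) and 0 at or above 1 (0%). With siRNA 1 in MDA-MB-231, 6 of 48 members lay at or below -1 (2.11% of genes) and 1 at or above 1 (0.972%). With siRNA 2 there were 3 of 48 at or below -1 (1.31%) and 0 at or above 1 (0.608%). With miR-490-5p in HCT116, 1 of 35 lay at or below -1 (1.11%) and 0 at or above 1 (0.305%). With miR-490-3p in HCT116, 1 of 34 lay at or below -1 (0.668%) and 4 at or above 1 (0.409%), which were IFIT2, IFIT1, ISG15 and OASL. With the scanner's own ratio 10 lay at or above 1 there, a count given without the share of all genes under that setting.

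Medians were taken over all 48 members, those at background included. For the A498 arrays the member median was -0.19 (miR-139-5p) and -0.55 (miR-139-3p), and for those of 786-O it was 0.04 and -0.02. The siRNA arrays gave -0.18 and -0.11, and the miR-490 arrays 0.01 for the 5p strand and 0.05 for the 3p strand. The median over all genes was 0.00 on every array. Among members measured on an array, 38 of 45 (miR-139-5p) and 44 of 45 (miR-139-3p) lay below 0 in A498, against 46.9% and 48.4% of genes. In 786-O 11 of 38 and 25 of 37 did, against 49.4% and 47.0% of genes. Under median centring, in place of loess, the median of the miR-139-5p array in A498 turned to 0.05 and that of siRNA 1 to 0.14. Across transfected cells in bulk, fewer cells with a high level and less RNA per cell cannot be told apart.

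**Figure D2:**
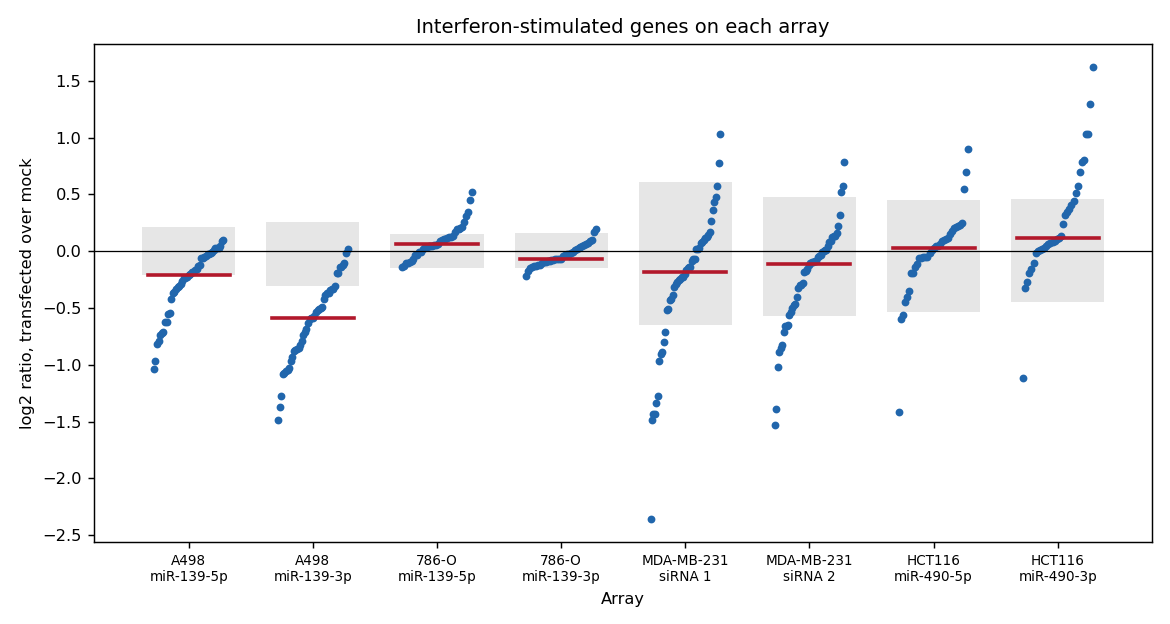
Log2 ratio (transfected over mock, vertical axis) of members well above background in at least 1 channel, on each of 8 arrays. Blue points are genes in order of their value, red lines their medians (for example -0.59 with miR-139-3p in A498), and grey boxes span the 5th to the 95th percentile of all genes measured on that array. On the miR-139-3p array of A498, 37 of 45 points lie under the grey box, and on that of 786-O 2 of 37 do.

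The RNA-binding effectors, 10 members, showed the widest range. IFIT proteins bind viral RNA ends and block translation. IFIT1 (hg19 chr10:91163438-91163497, plus strand) had log2 ratios of -0.82 and -1.28 on the A498 arrays (miR-139-5p first, then miR-139-3p), and of 0.26 and 0.04 on those of 786-O. With siRNA 1 and siRNA 2 it read -1.44 and -0.82, and with the 5p and 3p strands of miR-490 0.70 and 1.3. It was thus lower on both arrays of A498 and of MDA-MB-231 and higher on both of HCT116. Its mock level was 10.80 in A498, 10.18 in MDA-MB-231, 9.19 in 786-O and 7.22 in HCT116.

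IFIT2 (hg19 chr10:91068397-91068456, plus strand), a partner of IFIT1, read -1.04 and -1.37 on the A498 arrays, -0.10 and -0.17 on those of 786-O, -1.49 and -0.47 with the siRNAs, and 0.54 and 1.63 with miR-490, in the same order of arrays. Its mock level in A498 was 10.91 and in HCT116 6.51, a 21.1-fold difference. It was the only member past 1 on the miR-139-5p array of A498. A second, dimmer IFIT2 probe gave -1.06 and -1.45 in A498 but only 0.12 and 0.54 in HCT116, so the size of the HCT116 ratio differed between probes. IFIT3, which stabilizes IFIT1, read -0.71 and -1.04 on the A498 arrays, 0.10 and -0.02 on those of 786-O, -1.44 and -0.85 with the siRNAs, and 0.11 and 0.69 with miR-490. IFIT5 kept within -0.37 and 0.09 in the renal lines and reached 0.58 with siRNA 1 and 0.44 with miR-490-3p.

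OASL (hg19 chr12:121458320-121458379, minus strand) is a catalytically inactive relative of the oligoadenylate synthetases that enhances RIG-I signalling. It read -0.96 and -1.49 on the A498 arrays, 0.13 and -0.09 on those of 786-O, -2.36 and -0.89 with the siRNAs, and -0.11 and 1.03 with miR-490. The siRNA 1 value was the lowest of any member on any array, and its rank from the lowest was 15 among 22121 genes there. The mock level was 11.36 in A498, 8.60 in MDA-MB-231, 6.83 in 786-O and 6.43 in HCT116, so A498 was 30.3-fold above HCT116. The synthetases themselves, which activate RNase L, lay closer to 0. In A498 OAS1 read -0.23 and -0.59, OAS3 read -0.20 and -0.74, and the brightest OAS2 probe read 0.03 and -0.10. Both other OAS2 probes gave -0.32 with miR-139-3p in A498, below the brightest.

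ISG20, an exonuclease, had a mock level of 11.34 in A498 against 8.79 to 9.10 in the other lines. Its ratios were -0.42 and -0.71 on the A498 arrays, -0.14 and -0.22 on those of 786-O, and -0.60 and -0.27 with miR-490. With the siRNAs it read -1.28 and 0.32, on opposite sides of 0. ISG20 lay below 0 on 7 of the 8 arrays, and without a dye swap unequal dye uptake and a lower level cannot be told apart. After subtraction of the probe's median over the arrays of the other lines, it read -0.18 and -0.47 in A498 and 0.37 and 0.29 in 786-O. The siRNAs then gave -0.93 and 0.66, and miR-490 -0.28 and 0.05. DDX60, a helicase that assists RIG-I, read -0.74 and -0.87 on the A498 arrays, -0.13 and -0.09 on those of 786-O, -0.96 and -0.54 with the siRNAs, and 0.11 and 0.13 with miR-490. Over the group, 10 of 10 were below 0 with miR-139-3p in A498 (median -0.80) and 7 of the 8 measured were above 0 with miR-490-3p in HCT116 (median 0.57).

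Among the 4 GTPases, which trap viral capsids or attack the vacuoles of pathogens, none reached 1. MX1 read -0.27 and -0.85 on the A498 arrays, 0.04 and -0.07 on those of 786-O, 0.48 and -0.10 with the siRNAs, and -0.06 and 0.01 with miR-490. Its mock level was 10.04 in A498 and 5.97 in HCT116, a 16.8-fold difference. The HCT116 level lay close to background, where the offset pulls ratios toward 0, so those ratios are not read as a lack of change. MX2 lay between -0.80 (siRNA 1) and 0.12, but its second probe gave only -0.12 with siRNA 1. GBP1 and GBP2, which respond mainly to interferon gamma, lay between -0.19 and 0.04 in the renal lines, and GBP2 took opposite signs with siRNA 1 (-0.71) and siRNA 2 (0.79).

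Of the 8 membrane proteins, 3 reached -1 or below with siRNA 2. IFITM1, IFITM2 and IFITM3 keep enveloped viruses from fusing with the cell. With siRNA 2 in MDA-MB-231 IFITM2 read -1.53 and IFITM3 at -1.39, while with siRNA 1 they read -0.23 and -0.16. IFITM1 read 0.57 with siRNA 2 and -0.43 with siRNA 1. The probes of IFITM2 (hg19 chr11:309109-309168, plus strand) and IFITM3 (hg19 chr11:319855-319914, minus strand) are shown because their targets are near copies. Capitals mark bases without an identical partner in the best ungapped alignment, in which 34 of 40 aligned bases were the same.
IFITM2 probe: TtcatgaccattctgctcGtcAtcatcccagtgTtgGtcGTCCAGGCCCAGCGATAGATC
IFITM3 probe: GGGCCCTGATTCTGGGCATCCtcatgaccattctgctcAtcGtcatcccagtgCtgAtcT
Each probe may therefore bind RNA of the other gene in part, and their values may not be independent, which was not tested. IFITM2 read -0.13 and -0.42 on the A498 arrays, 0.21 and 0.01 on those of 786-O, and 0.01 and 0.08 with miR-490. IFITM3 read -0.31 and -0.49, 0.20 and -0.07, and -0.19 and 0.07 in the same arrays. Mock levels ran from 10.79 to 12.10 for IFITM2 and from 11.80 to 12.75 for IFITM3.

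BST2, or tetherin, holds budding virus at the cell surface. Its mock level was 11.78 in MDA-MB-231, 11.36 in A498, 8.95 in 786-O and 6.39 in HCT116, and the 31.4-fold excess of A498 over HCT116 was the largest among members measured in both lines. Its ratios were -0.62 and -0.50 on the A498 arrays, 0.19 and -0.12 on those of 786-O, -0.25 and -0.66 with the siRNAs, and -0.40 and 0.02 with miR-490. IFI27, a mitochondrial protein, had mock levels of 12.60 in MDA-MB-231, 10.43 in A498, 7.20 in 786-O and 6.51 in HCT116. It read -0.72 and -1.07 on the A498 arrays, 0.31 and -0.02 on those of 786-O, -0.29 and 0.01 with the siRNAs, and 0.03 and 0.58 with miR-490. IFI6, an antiapoptotic protein, read -0.29 and -0.96 on the A498 arrays, 0.52 and -0.14 on those of 786-O, -0.14 and -0.08 with the siRNAs, and 0.25 and 0.80 with miR-490. Its value with miR-139-5p in 786-O was the highest of any member in that line.

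PLSCR1, a phospholipid scramblase, was the member on which the siRNAs differed most. It read 1.04 with siRNA 1 and -1.02 with siRNA 2. The A498 arrays gave -0.18 and -0.93, those of 786-O 0.06 and -0.07, and the miR-490 arrays 0.05 and -0.19. LAMP3, a lysosomal membrane protein, was the only member highest in HCT116. Its mock level there was 7.37, at least 2.87-fold above A498, where it was not well above background. It read -1.41 and -1.12 in HCT116 and 0.78 and -0.09 in MDA-MB-231, so it was lower on both HCT116 arrays while the IFIT genes were higher. Neither renal line gave a ratio.

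ISG15 (hg19 chr1:949567-949626, plus strand) is a ubiquitin-like modifier that UBE2L6 and HERC5 attach to proteins and USP18 removes. ISG15 read -0.79 and -0.88 on the A498 arrays, 0.34 and -0.13 on those of 786-O, -0.88 and -0.65 with the siRNAs, and -0.06 and 1.03 with miR-490. Its mock level was the highest of the group, 12.57 in A498, 11.76 in MDA-MB-231, 10.73 in HCT116 and 9.72 in 786-O, so HCT116 was not the lowest line here. UBE2L6 in A498 read 0.10 with the 5p strand of miR-139 and -0.86 with the 3p strand. HERC5 read -0.37 and -0.52 on the A498 arrays, 0.12 and -0.09 on those of 786-O, -1.34 and -0.50 with the siRNAs, and 0.07 and 0.37 with miR-490. USP18 read -0.24 and -0.54 in A498 and 0.21 and 0.51 in HCT116, and HERC6 between -0.27 and 0.10 where measured. The group had a median of -0.54 with miR-139-3p in A498 and of 0.44 over the 4 members measured with miR-490-3p in HCT116.

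Among the 5 PARP and TRIM ligases none reached 1 on any array. PARP9 and DTX3L, which act as a pair on histones and viral proteins, lay between -0.37 and 0.15 except for PARP9 with miR-490-3p at 0.41. A second, dimmer PARP9 probe read -0.01 there, and -0.26 with miR-490-5p, where the brightest read 0.15. PARP14 read -0.36 and -0.83 in A498 and within 0.19 of 0 on the other arrays. TRIM21, an antibody receptor in the cytoplasm, stayed between -0.25 and 0.23 on all 8 arrays. TRIM22 read -0.06 and -0.38 in A498 and 0.43 and -0.17 in MDA-MB-231, and its A498 mock level of 8.12 was at least 4.88-fold above HCT116.

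The transcription factors of the pathway are themselves induced by interferon. STAT2 lay below 0 on every array, between -0.79 (miR-139-3p in A498) and -0.10 (miR-139-5p in 786-O). Without a dye swap, unequal dye uptake by the probe and a lower level cannot be told apart there. After subtraction of the probe's median over the arrays of the other lines, STAT2 read 0.04 and -0.41 in A498. IRF9 lay above 0 on 7 of the 8 arrays, between 0.08 and 0.24, and at -0.19 with miR-139-3p in A498. The same dye limit holds for it. After that subtraction IRF9 ran from -0.36 to 0.13, and its second, dimmer probe read from -0.05 to 0.35 where measured. IRF1 stayed between -0.34 and 0.37. SP110, a nuclear body protein, read 0.90 and 0.79 in HCT116 and 0.03 and -0.57 in A498. Its mock level in A498 was 8.93 and in HCT116 6.65.

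RSAD2, or viperin, and CMPK2 make and phosphorylate the nucleotides that block viral polymerases. RSAD2 read -0.62 and -1.06 in A498 and -0.32 and 0.04 in MDA-MB-231, and was not well above background in 786-O or HCT116. Its mock level in A498, 8.84, was at least 8.06-fold above HCT116. Its second probe was not well above background on any array. CMPK2 read -0.31 and -0.59 in A498.

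Among the 8 other induced proteins, IFI44 read -0.55 and -1.03 on the A498 arrays, 0.09 and -0.12 on those of 786-O, and -0.52 and -0.56 with the siRNAs. In HCT116 it was well above background only in the transfected channel of the miR-490-3p array, with a measured ratio of 0.32, and its A498 mock level was at least 15.3-fold above the HCT116 one. IFI44L in A498 read -0.17 with the 5p strand and -1.08 with the 3p strand, and lay within 0.12 of 0 on all other arrays that measured it. SAMD9L, a translation inhibitor, and XAF1, a promoter of apoptosis, differed between the strands in A498 as well, at 0.05 and -0.69 for SAMD9L and at -0.03 and -0.59 for XAF1. XAF1 also read -0.39 and -0.66 in MDA-MB-231. The second, dimmer probes read 0.15 and -0.39 for SAMD9L and 0.02 and -0.32 for XAF1 in A498. In MDA-MB-231 the second XAF1 probe read only -0.17 and -0.20. IFI35, which forms a complex with NMI, read -0.12 and -0.63 on the A498 arrays, -0.03 and -0.07 on those of 786-O, -0.91 and -0.71 with the siRNAs, and -0.35 and -0.01 with miR-490. Like STAT2, IFI35 lay below 0 on all 8 arrays, so the dye limit given for STAT2 holds here too. After the same subtraction IFI35 read -0.81 and -0.62 with the siRNAs. LGALS3BP, EPSTI1 and SAMD9 stayed between -0.45 and 0.23.

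CXCL10 and CXCL11, chemokines that draw T cells, were above background in MDA-MB-231 alone, and there only just. CXCL11 read -0.23 and 0.13. CXCL10 passed in the transfected channels only, so no ratio is read from it.

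**Figure D3:**
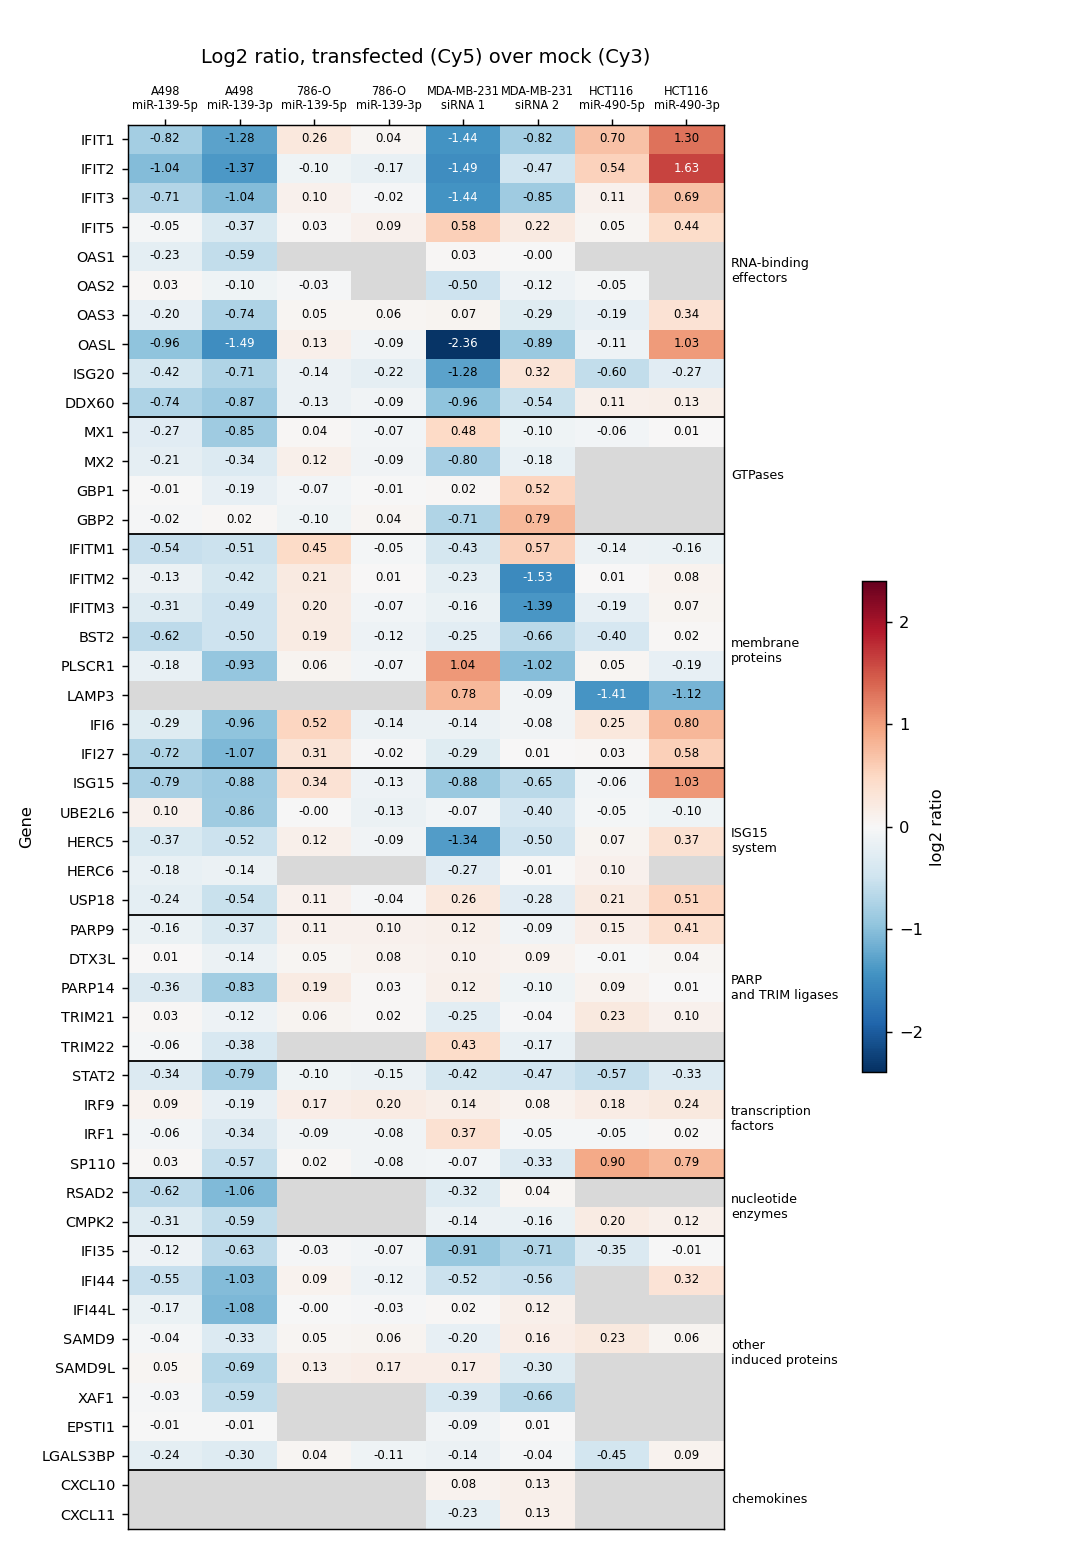
Log2 ratio of transfected (Cy5) over mock (Cy3) for each of 48 genes (rows, by role) on 8 arrays (columns), with the value printed in each cell. Blue is lower and red higher in transfected cells, and grey cells were not well above background in either channel. The miR-139-3p column of A498 is blue for 44 of 45 measured genes, both 786-O columns are pale, and the miR-490-3p column of HCT116 holds 4 genes at or above 1.

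Subtracting both arrays of a line removes a shared mock and the dye effect of a probe. In A498 miR-139-3p was lower than miR-139-5p for 41 of 45 members, against 50.3% of genes, with a member median of -0.30 and 0.00 for all genes. None reached 1 in size, with 0 at or below -1 (0.178% of genes) and 0 at or above 1 (0.0785%). The widest gaps were those of UBE2L6 (-0.96) and IFI44L (-0.91). In 786-O 27 of 37 members were lower with miR-139-3p, against 48.2% of genes, and the median was -0.11, with 0 past 1 in either direction (0% and 0% of genes). The widest gap there was that of IFI6, at -0.66.

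In HCT116 the 3p strand of miR-490 gave the higher value for 25 of 33 members and the lower for 8, where 50.4% of genes were lower (median difference of members 0.27), and 3 of them by 1 or more (0.855% of genes) against 0 at or below -1 (0.445%). The 3 were OASL (1.14), ISG15 (1.09) and IFIT2 (1.08). In MDA-MB-231 siRNA 2 minus siRNA 1 was at or below -1 for 3 of 48 members (2.87% of genes), PLSCR1, IFITM2 and IFITM3, and at or above 1 for 4 (2.59%), ISG20, GBP2, OASL and IFIT2. Both siRNAs were made against GINS1, and 7 members thus differed between them by a factor of 2 or more.

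**Figure D4:**
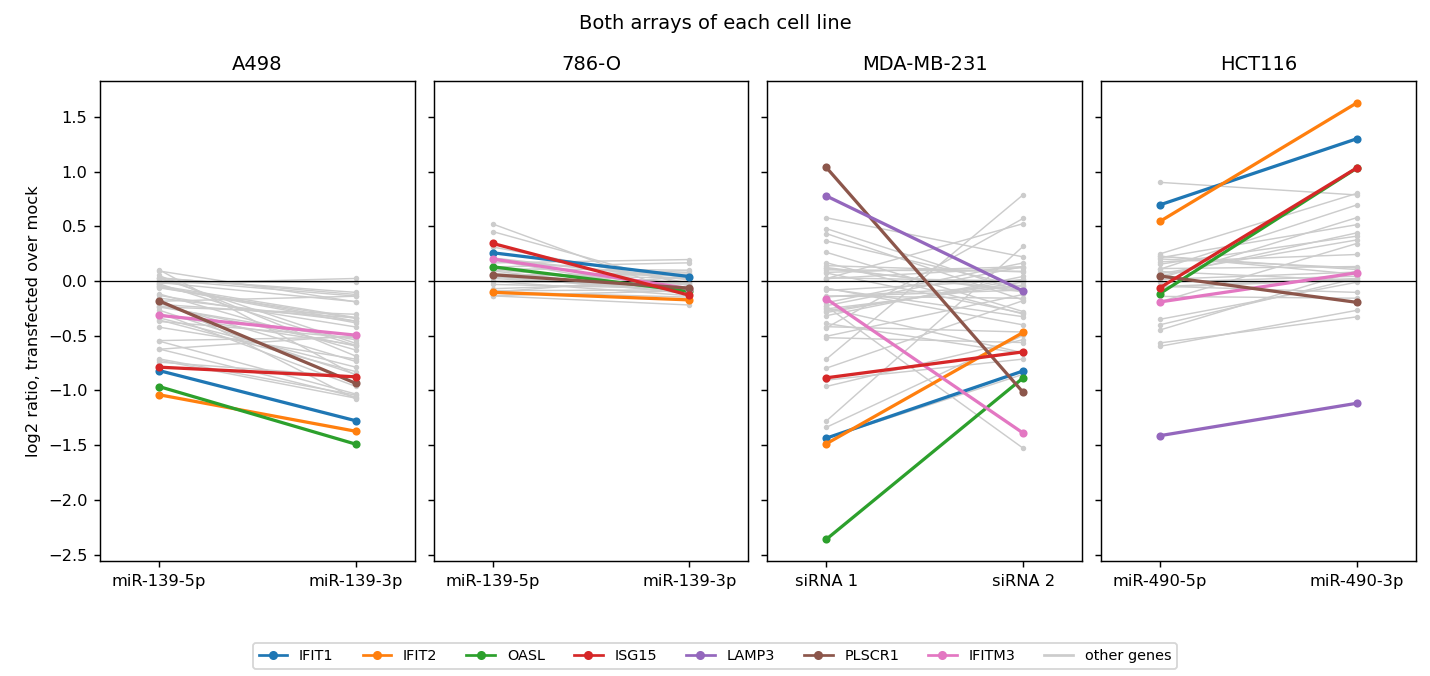
Log2 ratio of each member (vertical axis) on both arrays of a cell line, joined by a line, for members that passed the background flag on both arrays. Coloured lines are 7 named genes and grey lines the others. Most lines run downward in A498 and upward in HCT116, those of 786-O keep between -0.22 and 0.52, and PLSCR1 crosses from 1.04 to -1.02 in MDA-MB-231.

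Tests across arrays were made with limma on all probes, with the brightest probe of each member read out. For miR-139-5p, 0 of 38 members tested had an adjusted p under 0.05 in limma, and 0 had an unadjusted p under 0.05, against 0.0129% of 23288 probes called. For miR-139-3p, 0 of 37 were called (0% of 22813 probes), and UBE2L6 and STAT2 had an unadjusted p under 0.05, both lower, where 1014 of 22813 probes had one. Those means average 2 lines whose values differed. With the cell line added to the limma fit of miR-139-3p, 0 of 37 members were called. In that fit 13 had an unadjusted p under 0.05, all lower, where 713 of 22813 probes had one. Between the strands of miR-139, 0 of 37 members were called, as were 0% of 22178 probes. None of the 37 had an unadjusted p under 0.05.

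The difference between the lines was tested on its own, as A498 minus 786-O over all 4 miR-139 arrays. No member of 37 was called in limma (0% of 22178 probes), and 11 had an unadjusted p under 0.05, all lower in A498, where 155 of 22178 probes had one. The 11 were IFIT1, IFIT3, IFI27, ISG15, IFI6, IFI44, PARP14, DDX60, BST2, STAT2 and PARP9. The IFIT1 difference was -1.20 (SE 0.24), with limma giving an adjusted p of 1.0. The member median of the difference was -0.46. When only the miR-139 arrays were fitted, 9 of 37 members and 14 of 22178 probes were called, so the outcome of this test rests on which arrays give the spread.

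For si-GINS1 1 of 48 members was called, against 6.96% of 27803 probes, a smaller share than among all probes. This was IFI35, at -0.81 with an SE of 0.14 (n = 2 siRNAs, adjusted p 0.0446 in limma). Its adjusted p was 0.111 with the scanner's own log ratio, and over all settings tried it ranged from 0.0167 to 0.523. Of the other members 11 had an unadjusted p under 0.05, among them OASL, HERC5, IFIT1 and IFIT3, which were lower with both siRNAs, and IFIT5, which was higher. Over all probes 7214 of 27803 had such a p, so the members' 12 of 48 lie near the background share in this fit. When only the siRNA arrays were fitted in limma, 8 of 48 members, all lower, and 2541 of 27803 probes had such a p. That is a larger share of members than of probes, so the comparison rests on which arrays give the spread. Without siRNA 1, 5 of 48 members and 6666 of 27803 probes were called, and without siRNA 2, 14 members and 9391 probes, a smaller share of members than of probes in each fit. In both fits the group holds 1 array, assumed to vary like the other groups.

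Other genes of the pathway were taken from a list of 36, of which 35 had a probe. None lay at or past 1 on any array. Of the ligands, IFNB1, IFNA2, IFNG, IFNL3 and IFNK were within 0.11 of 0 on all arrays, and only IFNB1, IFNL1, IFNL2 and IFNE passed the background flag anywhere. IRF7, the factor that amplifies interferon production, read -0.18 and -0.54 in A498, 0.65 and -0.57 in MDA-MB-231, and -0.03 and 0.44 in HCT116, with a mock level of 9.7 in A498 and a level at background in 786-O. SOCS1, an inhibitor of JAK kinases, read -0.07 and -0.30 in A498 and 0.26 and 0.75 in HCT116. The RNA sensors had a median of -0.37 with miR-139-3p in A498 and of 0.04 with miR-490-3p in HCT116, with IFIH1 (-0.94) and DDX58 (-0.86) lowest on the former. In limma 0 of 25 to 26 pathway genes tested were called in the miR-139 comparisons, and 1 of 26 for si-GINS1, IFNGR1, which was higher at 0.76 (SE 0.10, adjusted p 0.0265), beside 6.96% of all probes. No pathway gene was called for si-GINS1 with the scanner's own ratio, with dye bias removed, with a variance trend or from the siRNA arrays alone.

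Members whose promoter window held the letters searched for had a median log2 ratio of -0.72 with miR-139-3p in A498 (24 measured). Those whose window lacked these letters had -0.59 (13 measured). The windows of RSAD2, OAS1 and XAF1, in the second set, held GAAACGAAA, which the search did not count, so the split is by exact letters only. With miR-490-3p in HCT116 the medians were 0.10 (21 measured) and 0.07 (8 measured). These medians differed by less than the range within either set, and no test was made.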

How the data were processed

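RNA of mock and transfected cells was hybridised on 8 two-colour Agilent arrays, all on 1 slide read in 1 scan. The authors deposited Agilent Feature Extraction (11.5.1.1) output, whose mean and background intensities were used here, and a table of log10 ratios, which equalled the scanner's log ratio (largest difference 0). Control spots and outlier spots were left out. Intensities were corrected by normexp with an offset of 50 and scaled within arrays by loess (limma 3.58.1, R 4.3.3), and spots of a probe were averaged. Mock levels were the Cy3 channel after further Aquantile scaling between arrays. A gene was represented by its brightest probe by mean log2 intensity. Genes not well above background in either channel were left out of counts. Tests were made with limma on all probes, with 5 group coefficients and Benjamini-Hochberg adjustment. miR-139 replicates share a cell line across strands, which is where pairing comes from, and deviations of same-line arrays correlated at 0.0753 over 22178 probes. Single-array values were printed for members with a log2 ratio at or past 1 in size on any array, called by limma, or differing by 1 or more between A498 and HCT116 mocks, and for IRF7 and SOCS1. Some items are not reported here. Those of IFIT5, OAS2, OAS3, MX2, GBP2, PARP9, IRF9, TRIM21, CXCL11, IFIH1, DDX58, IFNGR1 and the ligands were chosen after values were seen. Members, lists and tests were chosen with earlier results of these data known. Alternatives covered the offset, background correction, centring, the scanner's ratio, dye bias, probe choice, filters, variance prior, fitted arrays, left-out replicates and the cell-line block. Array number limits precision.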

Additional observations from a re-analysis of the deposited data

Results flagged for a closer look

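IFIT1 and IFITM2 were lower on both miR-139 arrays of A498 and above 0 on both of 786-O. By their brightest probes PARP14, PARP9, OAS3, SAMD9 and IFIT5 had the same signs, but many of those values were small. Within the technical SD of 0.08 for 786-O lay both values of OAS3 (0.05 and 0.06) and of SAMD9 (0.05 and 0.06). The 3p value of PARP14 (0.03) and the 5p value of IFIT5 (0.03) did too. On the 5p array of A498, SAMD9 (-0.04) and IFIT5 (-0.05) were within its SD of 0.10. The second PARP9 probe read 0.01 on that array, so it lacked the pattern. With miR-139-3p in 786-O IFIT1 read 0.04 and IFITM2 0.01, within the SD of 0.08 between the mock channels of that line. The difference, A498 minus 786-O, was -1.20 for IFIT1 and -0.39 for IFITM2. In limma the unadjusted p was 0.00886 for IFIT1 and 0.464 for IFITM2, and the adjusted p was 1.0 for both, so neither difference passed. The IFITM2 probe resembles that of IFITM3, and the part of cross-hybridisation in its value was not tested.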

How the results depend on the processing

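No called value reversed under any alternative, and the cause of each shift below was not tested. Counts at or past 1 in this section are given without the share of all genes under the same setting. They show how the members' counts moved and are not read against all genes. Counts at or below -1 in A498 with miR-139-5p (1) were 2 with an offset of 10, 3 with the scanner ratio and 0 with median centring or dye bias removed. With miR-139-3p (8) they were 14 with an offset of 10 or no background correction, 3 with median centring and 18 with the scanner ratio. In 786-O 3 members lay at or above 1 with miR-139-5p once dye bias was removed. For siRNA 1, counts at or below -1 (6) were 2 with median centring and 12 with the scanner ratio, and those at or above 1 (1) were 2 with an offset of 10, no background correction or median centring and 3 with the scanner ratio. For siRNA 2, median centring gave 1 at or below -1 (3 as reported) and 1 at or above 1 (0 as reported), and the scanner ratio gave 7 and 1. With miR-490-5p, 2 lay at or below -1 with the scanner ratio, and at or above 1 (0) there were 1 with an offset of 10 or no background correction, 3 with the scanner ratio and 2 with dye bias removed. With miR-490-3p, 0 lay at or below -1 with median centring and 10 at or above 1 with the scanner ratio.

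Medians moved as well. In A498 that of miR-139-5p was 0.046 with median centring, and that of miR-139-3p -0.76 with an offset of 10, -0.72 with no background correction and -0.81 with the scanner ratio. With dye bias removed, a step that raises lines whose other arrays were low, medians were 0.15 and 0.095 in 786-O and 0.089 and 0.16 in HCT116, and the scanner ratio gave 0.14 for miR-490-3p. For siRNA 1 they were -0.28 with an offset of 10 or no background correction, 0.14 with median centring and -0.31 with the scanner ratio. For siRNA 2 they were -0.20, -0.022 and -0.25 with an offset of 10, median centring and the scanner ratio.

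Between strands in A498, members at or below -1 (0) were 3 with an offset of 10 or no background correction, 2 with median centring and 7 with the scanner ratio. Between siRNAs, members at or below -1 (3) were 6 with an offset of 10 and 7 with the scanner ratio, and those at or above 1 (4) were 8 and 9, and 7 with no background correction. Between the strands of miR-490 the scanner ratio gave 1 at or below -1 (0) and 7 at or above 1 (3). The count of members higher in HCT116 than in A498 (2) was 1 with quantile scaling or without miR-139-5p replicate 1. The si-GINS1 call was lost (0) with median centring, the scanner ratio, dye bias removed, no filter, a variance trend or its own arrays alone, and single siRNAs, with 1 array in the group, gave 5 to 14 of 48 members beside 6666 to 9391 of 27803 probes. On their own arrays 9 members differed between the miR-139 lines. With the cell line as a replicate block, 0 members were called for miR-139-5p, miR-139-3p and the strands, so the pairing changed no call. It did change the unadjusted p in limma, which was under 0.05 for 13 of 37 members with miR-139-3p, against 2 without the block. Median centring moved the si-GINS1 median of all probes to 0.13.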
